A study of Mus musculus with 12 samples.

Results

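The mouse genes Zfp700 to Zfp999 code mostly for zinc finger proteins of the KRAB family, and their transcripts were measured in livers of germ-free (GF) and conventionalized (CV) mice. The 122 genes were chosen by their symbols alone, out of 41128 genes in the table. GENCODE lists 120 of them as protein coding and 2, Zfp783 and Zfp939, as transcribed pseudogenes. A total of 83 had a mean of at least 10 size-factor-scaled reads over the 12 libraries and were tested, 33 had fewer reads, and 6 had none. The symbols were picked with the difference between CV and GF livers already known, so all values of that contrast below are descriptions. Only the difference between the sexes, and whether the change differed between the sexes, were tested.

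Liver poly(A) RNA of C57BL/6 mice was sequenced in 4 groups of 3 mice, namely GF males, GF females, CV males and CV females. Every mouse lived in a sterile isolator until weaning on day 21. GF mice then stayed there, whereas CV mice spent 3 weeks in cages with used bedding, which carries microbes from other mice of the facility, and livers were taken from both at 6 weeks of age. Littermates were divided between the conditions, but which mice shared a litter, a cage or a date is not given in the sources used here. CV mice differed from GF mice in housing as well as in microbes, and these cannot be told apart.

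C2H2 zinc fingers are short protein modules in which a pair of cysteines and a pair of histidines hold a zinc ion, and a row of such fingers reads a stretch of DNA. In the KRAB family the fingers follow a KRAB domain near the start of the protein. This domain recruits the scaffold protein TRIM28, which brings histone methyltransferases, heterochromatin proteins and DNA methylation to the bound site, and many targets are transposable elements. The genes arose by repeated duplication, lie in clusters, differ between species and are transcribed at low levels in most tissues.

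The finger is what these genes share, and reads can be assigned to a gene only where its copies differ. In translated coding sequences, a finger was counted where cysteines 2 residues apart were followed after 12 residues by histidines 3 to 5 residues apart. The median was 11 fingers in 120 genes, with a range from 0 in 7 genes to 23. The first finger of 8 genes is shown from GENCODE transcripts on build GRCm38, from the first cysteine codon to the last histidine codon, with these 4 codons in capitals. Zfp950 and Zfp715 had the lowest CV level relative to GF. Zfp871 had the most reads among genes with a KRAB pattern. Zfp768, Zfp771 and Zfp706 had the highest CV level relative to GF, and Zfp966 and Zfp968 show a pair of near-identical copies.
Zfp950: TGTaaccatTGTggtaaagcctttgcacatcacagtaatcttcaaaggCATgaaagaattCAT
Zfp715: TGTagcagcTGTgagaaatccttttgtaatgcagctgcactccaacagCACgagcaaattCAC
Zfp871: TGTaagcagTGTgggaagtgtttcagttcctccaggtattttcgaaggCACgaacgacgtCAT
Zfp706: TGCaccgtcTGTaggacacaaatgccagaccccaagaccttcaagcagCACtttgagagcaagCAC
Zfp768: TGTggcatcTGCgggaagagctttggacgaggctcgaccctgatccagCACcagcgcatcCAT
Zfp771: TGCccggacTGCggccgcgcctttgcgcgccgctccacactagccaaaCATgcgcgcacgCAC
Zfp966: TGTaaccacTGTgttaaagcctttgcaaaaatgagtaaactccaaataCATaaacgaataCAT
Zfp968: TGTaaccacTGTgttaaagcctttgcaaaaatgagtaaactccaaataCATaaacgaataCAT

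These fingers lie at chr19:61120269-61120331 (minus strand), chr7:43299401-43299463 (minus strand), chr17:32775555-32775617 (minus strand), chr7:127344031-127344093 (minus strand), chr7:127253856-127253918 (plus strand), chr2:175921217-175921279 (minus strand) and chr2:175382283-175382345 (plus strand), each within 1 coding exon. That of Zfp706 lies on the minus strand across an intron, within chr15:37001896-37003700. All 63 bases were identical between Zfp966 and Zfp968. In contrast, 36 of 63 bases (57.1%) were identical between Zfp950 and Zfp715, and 30 of 63 (47.6%) between Zfp950 and Zfp771. The A box of the KRAB domain was searched for with a sequence pattern and found in 95 of the 120 coding genes.

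Total reads per library ranged from 5993619 to 15290835. 8 abundant loci, among them Lars2 and both mitochondrial ribosomal RNA genes, held 43.9% to 70.4% of the reads in GF and 6.35% to 23.0% in CV libraries. Apart from the mitochondrial ribosomal RNA genes, the loci were picked for a high read share in GF and a lower one in CV libraries. The direction of that difference was therefore set by the choice, and scaling to reads outside the loci lowers CV values relative to GF. The 122 genes had 2587 to 8583 reads in a GF library and 5414 to 10396 in a CV library. One read was worth 0.895 to 2.66 units of the deposited scale in GF and 0.421 to 0.909 in CV libraries, so values in GF libraries rest on fewer reads. The library labelled CV male 3 went against its label. It had no read of 4 Y chromosome genes, whose summed value was 684 to 1170 in the other male libraries, and its Xist value was 2382 against 4.68 to 21.3 in those. The main counts by limma over both sexes and in males, and some results of single genes, are given with and without it. The liver label was borne out by 7 hepatocyte markers, with summed values of 107137 to 452569 in GF and 384997 to 614900 in CV libraries, and 5 of them were higher in CV livers by limma. Of 5 Kupffer cell markers, 2 were higher (731 to 1443 in GF and 835 to 1945 in CV libraries). The values of 4 of 4 tested lymphocyte markers were lower in CV than in GF livers (summed value of 6 genes 30.2 to 41.3 against 120.0 to 217), and of 4 of 5 erythroid markers (916 to 3159 against 2777 to 32885). For comparison, limma called 28.7% of all tested genes lower and 32.3% higher. Of 5 endothelial markers 1 was lower, and of 4 stellate cell and 4 bile duct markers none was called. None of these markers was at 0 in every library. In bulk tissue, fewer cells of a type and less RNA per cell cannot be told apart, and the part of these cells, of depth and of the abundant loci in the results below was not tested.

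To place the genes among liver transcripts, levels were first compared per kb of transcript. The 83 tested genes had a median mean value of 15.5 per kb, against 30.2 for all tested genes and 12.8 for the 169 tested Zfp genes with other numbers. Zfp706, which codes for a protein of 76 residues with 1 finger, stood highest at 137 per kb. Zfp707 (7 fingers and a KRAB pattern) followed at 123, Zfp771 (8 fingers) at 89.4, Zfp970 (14 fingers) at 84.8 and Zfp830, which codes for a nuclear protein of early embryo survival, at 76.3. Zfp825 (65.2), Zfp809 (62.5), Zfp950 (55.1), Zfp871 (46.6) and Zfp869 (44.7) made up the rest of the highest 10. The lowest tested gene had 2.08 per kb. Thus 1 small gene without a KRAB pattern led, and 7 of the 9 that followed held the pattern.

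The 39 genes that were not tested had 0 to 120 reads over all 12 libraries (median 13). Of their 50-base stretches, a median of 15.9% also occurred in transcripts of other genes, compared with 1.27% in the tested genes. Zfp965, Zfp966, Zfp967 and Zfp968, a group of similar genes on chromosome 2, had no read in any library and shared 96.3%, 90.0%, 100% and 95.5% of these stretches. Reads that fit several copies may have been dropped in counting, so no read there does not show absent transcription. Zfp936 and Zfp957 also had no read, yet shared 15.6% and 0.23%. Of the 33 genes with reads but under the minimum, 22 had a lower mean in CV than in GF libraries. That share was not counted over all genes under the minimum. With the minimum mean lowered to 1, the median log2 change (CV minus GF) over all tested genes went from 0.07 to −0.12.

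With the deposited scaling, most of the genes had lower values in CV than in GF livers. By limma with Benjamini-Hochberg adjustment over all 11782 tested genes, 42 of 83 were called lower, against 28.7% of all tested genes, and 5 were called higher, against 32.3%. The median log2 change (CV minus GF) was −0.59, compared with 0.07 over all tested genes. Of the 83 changes, 69 were below 0, against 47.3% of all tested genes. This was not particular to these numbers, as the 169 other Zfp genes had 87 lower, 8 higher and a median of −0.54. With edgeR 49 were lower (32.0%) and 5 higher (30.1%), and with DESeq2 47 (31.8%) and 5 (31.6%). Without CV male 3, limma called 40 lower (28.1%) and 4 higher (32.1%). With the mitochondrial ribosomal RNA share as a covariate, which was 9.36% to 16.4% in GF and 1.39% to 6.32% in CV libraries, 1 was called lower (0.628%) and 0 higher (0.552%). An unadjusted p under 0.05 was then found for 14 of the 83, against 2978 of all 11782 tested genes. The counts and the median depended on the scaling. With values scaled to all reads, 17 were lower (13.7% of all tested genes) and 10 higher (50.3%), with a median of −0.06. With values scaled to reads outside the abundant loci, 60 were lower (43.5%) and 3 higher (16.5%), with a median of −1.10. The median over all tested genes moved alongside, to 0.62 and −0.43, so the median of the Zfp genes relative to it was −0.66 as deposited, −0.68 on all reads and −0.66 outside the loci.

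**Figure D1:**
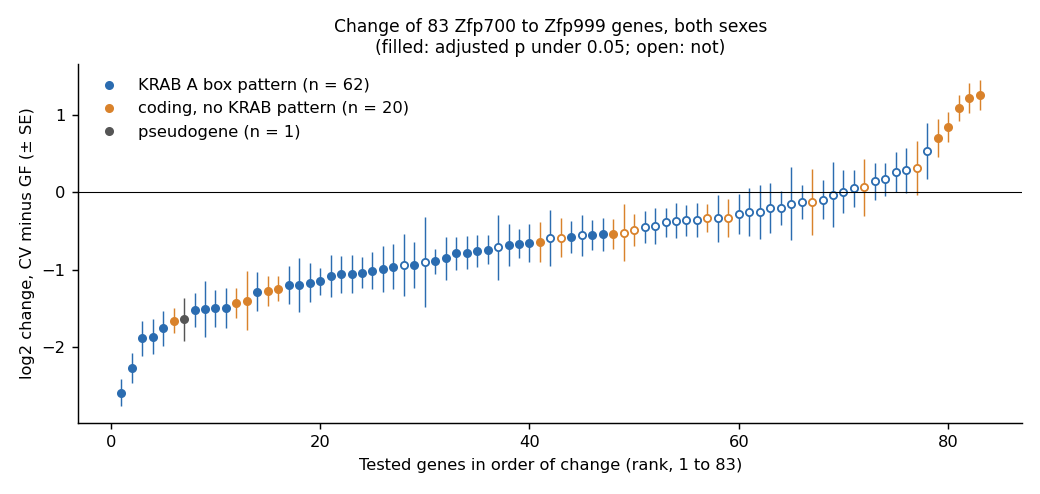
The log2 change CV minus GF over both sexes (vertical axis, ± SE, deposited scaling) of 83 tested genes in order of rank (horizontal axis), with filled points for called genes. With this scaling 69 changes lie below 0, and the 5 called higher are all coding genes without the KRAB pattern; on all reads the calls were 17 lower and 10 higher.

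The summed value of the 122 genes was 6373 to 7685.6 in the GF male libraries and 6881 to 7893 in the GF female ones, against 4814 to 4992 in CV males and 4373 to 4487 in CV females. The GF and CV libraries did not overlap. As CPM, reads scaled to a fixed total per library, the sums were, however, 432 to 805 (median 734) in the 6 GF and 609 to 688 (median 625) in the 6 CV libraries, and these overlapped. As CPM of the reads outside the abundant loci they were 1097 to 2308 in GF and 661 to 883 in CV libraries, again without overlap. Most of those loci were picked for a higher share in GF libraries, so this scale raises GF sums relative to CV sums. The 95 genes with the KRAB pattern did not overlap in deposited sum, at 4416 to 5910 in GF and 2449 to 3077 in CV libraries. The 25 coding genes without it summed to 1819 to 2047 in GF and 1809 to 2190 in CV libraries, which overlapped. Without Zfp706, the most abundant of them, they summed to 1256 to 1746 in GF and 1052 to 1145 in CV libraries, which did not overlap.

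**Figure D2:**
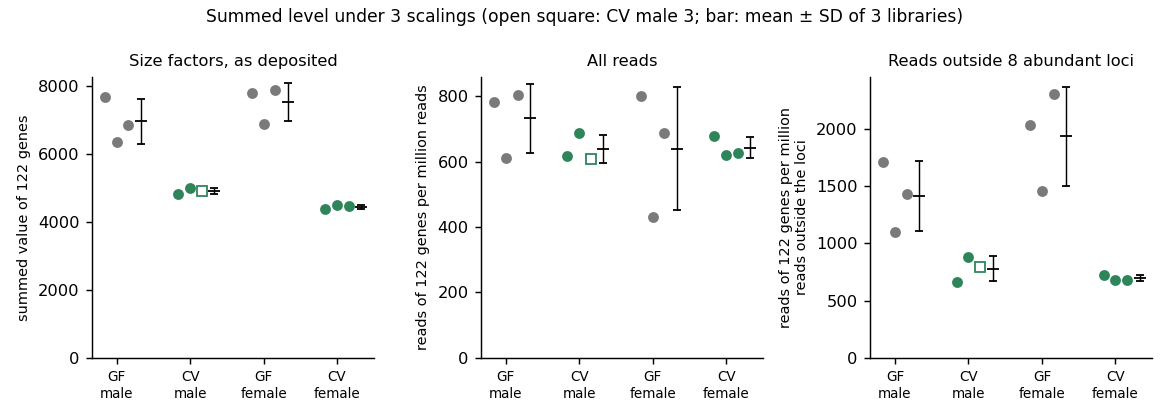
The summed level of the 122 genes in each library (points) by group, with mean ± SD of 3 libraries (bars), as deposited (left), as CPM of all reads (middle) and as CPM of reads outside 8 abundant loci (right). GF libraries lie above all CV libraries on the left and right, whereas the groups overlap in the middle, at 432 to 805 in GF and 609 to 688 in CV.

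Genes with the KRAB pattern made up 34 of the 42 called lower, and 62 of the 83 tested. For the counts that follow, the shares of all tested genes were 28.7% lower and 32.3% higher. Of 62 tested genes with the pattern, 34 were called lower and none higher by limma, with a median of −0.70 and a range from −2.59 to 0.54. Of the 20 tested coding genes without it, 7 were called lower and 5 higher, with a median of −0.41. Genes with 12 or more fingers had 25 of 36 called lower and a median of −0.90, those with 6 to 11 fingers 12 of 37 and −0.34, and those with up to 5 fingers 4 of 9 and −0.54. On chromosome 17, which held 21 of the genes, 11 of 19 tested were lower and none higher by limma. On chromosome 7, with 24 genes, 8 of 18 were lower and 3 higher.

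Zfp950, a KRAB gene with 17 fingers, had the lowest CV level relative to GF. Its values were 421, 397 and 374 in GF males, 631, 383 and 535 in GF females, 62.5, 96.2 and 99.9 in CV males, and 55.9, 72.5 and 65.0 in CV females. Every CV library lay below every GF library. The log2 change was −2.59 ± 0.18 (SE), −2.22 ± 0.25 in males and −2.96 ± 0.25 in females, and without CV male 3 it was −2.65 over both sexes.

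Zfp715, a KRAB gene with 18 fingers, was at 266, 145 and 205 in GF males and 254, 245 and 265 in GF females. In CV males it was at 47.4, 76.3 and 62.7 and in CV females at 42.1, 30.9 and 31.3. The CV values were again below all GF values, and the change was −2.27 ± 0.19. For Zfp948 (15 fingers) the 6 GF libraries ran from 52.4 over a median of 127 to 167 and the CV libraries from 22.9 over 26.6 to 46.3, a change of −1.89 ± 0.23 without overlap.

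Zfp976 (GF 90.5 to 178, CV 25.7 to 57.2, change −1.87 ± 0.23), Zfp970 (GF 131 to 314, CV 43.7 to 76.0, −1.76 ± 0.22) and Zfp971 (GF 49.6 to 78.8, CV 15.6 to 30.9, −1.52 ± 0.22) did not overlap between conditions either. Their counts are uncertain, since 20.4%, 49.5% and 51.1% of their 50-base stretches occur in other genes. Zfp939, a pseudogene, ranged from 30.6 to 76.7 in GF and from 12.0 to 27.3 in CV libraries, with a change of −1.64 ± 0.28. Zfp800, a gene with 6 fingers and no KRAB pattern, was at 167 to 238 in GF and 49.4 to 76.3 in CV libraries (−1.66 ± 0.16). Its exons overlap those of 6530409C15Rik on the other strand, and whether strand was used in counting is not given in the sources used here. Under every alternative in which they were tested, these 8 lowest genes stayed called, except that 7 of them (all but Zfp950) lost the call with the mitochondrial ribosomal RNA share as a covariate.

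Most of the other genes with the highest levels per kb were called lower as well. Zfp871, which has 15 fingers and a KRAB pattern, was at 806, 574 and 662 in GF males, 675, 521 and 698 in GF females, 332, 460.3 and 428 in CV males, and 321, 283 and 305 in CV females. The conditions did not overlap, and the change was −0.89 ± 0.16. This gene has a transcript of 10851 bases, and with the length and GC trend removed the change was 0.16, in the other direction. Zfp707 ran from 230.2 to 727 in GF and from 193 to 229 in CV libraries (−1.02 ± 0.24), and Zfp830 from 135 to 202 and from 61.2 to 87.2 (−1.25 ± 0.16). Zfp869 overlapped between conditions (58.5 to 123 and 29.1 to 88.0), with a change of −0.65 ± 0.24. Its call was lost in turn without GF male 1, GF female 1, GF female 3, CV male 3 (−0.45) or CV female 3. Zfp825 was not called, at 53.2 to 157 and 85.9 to 131 (0.05 ± 0.24), and 29.5% of its 50-base stretches occur in other genes.

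The 5 genes called higher in CV livers lacked the KRAB pattern. Zfp706 was at 316, 661 and 449 in GF males, 242, 319 and 239.6 in GF females, 1064, 745 and 734 in CV males, and 756, 883 and 849.6 in CV females. All CV values were above all GF values, and the change was 1.26 ± 0.19. Its exons overlap those of Gm26766 on the other strand. Zfp768 (10 fingers) ranged from 31.9 to 72.3 in GF and from 103 to 159.8 in CV libraries, a change of 1.22 ± 0.19 without overlap. Zfp771 ranged from 52.8 to 109 and from 151 to 216, a change of 1.09 ± 0.17 without overlap. Zfp787 (7 fingers) ranged from 32.6 to 50.6 and from 58.0 to 102 (0.84 ± 0.19). Zfp703, a developmental co-repressor in which no finger matched the pattern, overlapped between conditions at 14.2 to 28.8 and 25.2 to 47.7 (0.70 ± 0.25). The call for Zfp703 was lost in turn without GF male 3, CV male 2, CV male 3, CV female 2 or CV female 3. Zfp709, sixth in order, was not called by limma (0.54 ± 0.36), but was called higher on all reads (1.06) and with the length and GC trend removed (1.28).

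**Figure D3:**
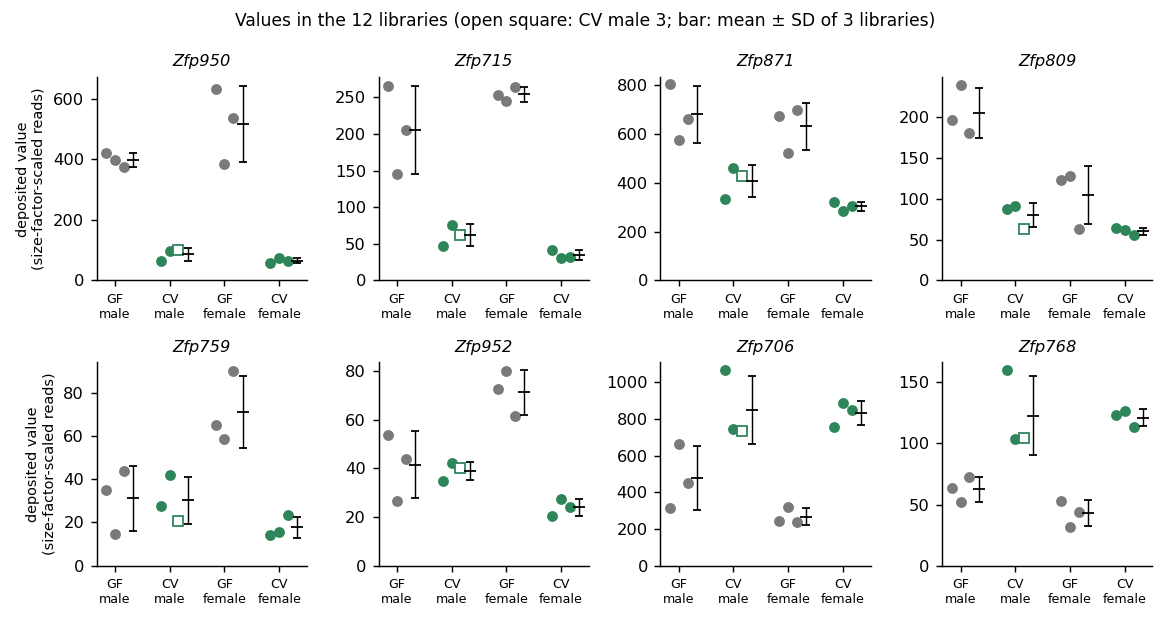
Deposited values (vertical axes, size-factor-scaled reads) of 8 genes in the 12 libraries by group, with mean ± SD of 3 libraries (bars) and CV male 3 as an open square. CV values lie below all GF values for Zfp950, Zfp715 and Zfp871 and above them for Zfp706 and Zfp768; Zfp759 and Zfp952 differ between conditions in females and overlap in males.

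The genes nearest the median change were Zfp995, a KRAB gene at 10.6 to 37.2 in GF and 7.81 to 27.3 in CV libraries (−0.59 ± 0.36), and Zfp750, a regulator of skin differentiation at 43.9 to 86.0 and 19.1 to 62.0 (−0.59 ± 0.25). Both overlapped between conditions, and neither was called by limma with the deposited scaling. Zfp750 was called lower by edgeR (−0.60) and DESeq2 (−0.59), and by limma without GF male 3, GF female 3 or CV male 1, among other settings. Zfp750 and Zfp760 (−0.94 ± 0.40) lay just outside the threshold of the call at an adjusted p of 0.051 each, and Zfp873 (−0.68 ± 0.27) and Zfp865 (−0.64 ± 0.26) just inside it at 0.040 each. The genes with the most fingers, Zfp748 and Zfp788 with 23 each, had changes of −0.37 ± 0.22 (not called; 0.18 on all reads) and −0.94 ± 0.29 (called). Zfp704, in which no finger matched the pattern, was at 96.4 to 205 in GF and 39.5 to 70.0 in CV libraries (−1.28 ± 0.20). With a transcript of 13834 bases, its change was −0.03 once the length and GC trend was removed. Over the 83 genes, 20 were lower in every CV library than in any GF library, against 15.7% of all tested genes, and 4 were higher, against 15.6%.

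Transcript length, GC content and level were then considered, since changes in these libraries varied with them. The median GC content was 41.3% in the Zfp genes and 49.4% in all tested genes, the median length 3184 and 3351 bases, and the median mean value 43.9 and 105. All tested genes were divided into 4 equal bins of each. Over all tested genes, the median change ran from 0.68 in the bin of shortest transcripts to −0.60 in that of the longest, from −0.16 at the lowest GC content to 0.26 at the highest, and from −0.32 at the lowest values to 0.62 at the highest. The Zfp medians in the same bins were −0.65 (11 genes) and −0.85 (15 genes) by length, −0.68 (57 genes) and −0.20 (9 genes) by GC content, and −0.44 (36 genes) and −0.95 (4 genes) by value. Thus the Zfp medians lay below those of all tested genes in each of these bins, by the smallest margin at the lowest values. With a per-library trend on length and GC removed, 33 were called lower (24.3% of all tested genes) and 6 higher (32.4%), and the median was −0.39 against 0.11 for all tested genes.

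**Figure D4:**
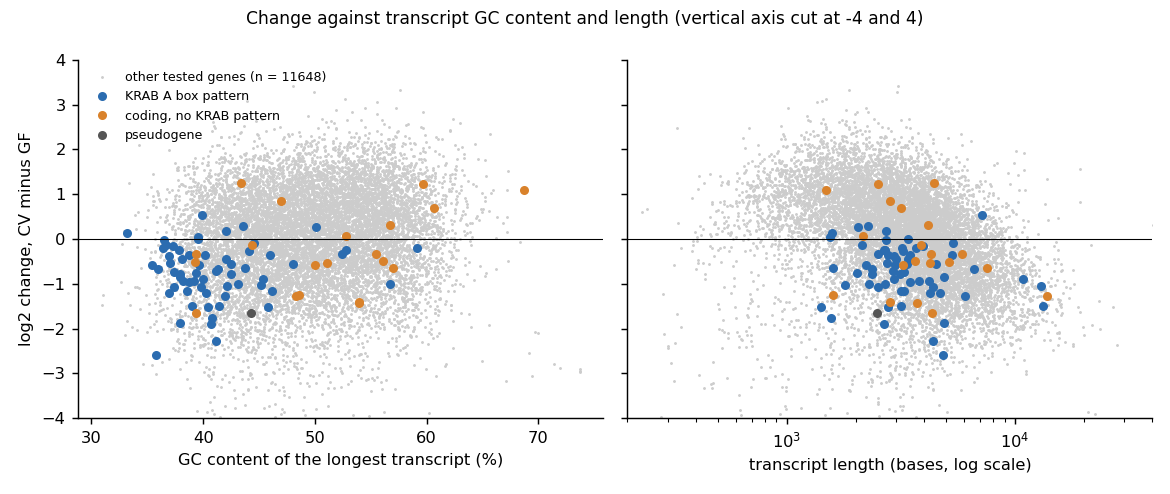
The log2 change CV minus GF (vertical axes, deposited scaling) against GC content of the longest transcript in percent (left) and transcript length in bases on a log axis (right), for 83 Zfp genes (coloured by KRAB pattern) and other tested genes (grey). Genes with the KRAB pattern crowd at low GC content, with a median of 40.1% against 51.9% for coding genes without it, and most lie below 0 at short and at long lengths; on all reads the median of the 83 was −0.06.

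Across the 83 genes, the change correlated with GC content at a Pearson's r of 0.33 (Spearman's rho 0.17), with log2 length at −0.17 (−0.15) and with log2 mean value at −0.18 (−0.28). Across the 62 genes with the KRAB pattern alone, r was 0.11, −0.18 and −0.40. For the number of fingers it was −0.26 over 82 genes. These are descriptions over genes, which share libraries and sequence and are not replicates. Among the 12 tested genes that share at least 20% of their 50-base stretches with other genes, 6 were lower and none higher by limma (median −0.66), and among the other 71, 36 were lower and 5 higher (median −0.59).

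Because the genes tended to move together, the bases just upstream of their starts were examined. RefSeq promoters of 300 bases (250 before and 50 after the start, build GRCm38.p6) matched 107 of the 122 genes. CCAAT, on either strand, occurred in 71 (66.4%) of them, against 37.9% of 27025 promoters in all. TATAAA occurred in 2.80% against 14.2%, and GGGCGG in 42.1% against 35.9%, also on either strand. The 250 upstream bases of Zfp950, at chr19:61140841-61141090 (minus strand), hold CCAAT 2 times, shown in capitals on whichever strand it lies, and those of Zfp768, at chr7:127345315-127345564 (minus strand), hold none and have a GC content of 75.2%.
Zfp950: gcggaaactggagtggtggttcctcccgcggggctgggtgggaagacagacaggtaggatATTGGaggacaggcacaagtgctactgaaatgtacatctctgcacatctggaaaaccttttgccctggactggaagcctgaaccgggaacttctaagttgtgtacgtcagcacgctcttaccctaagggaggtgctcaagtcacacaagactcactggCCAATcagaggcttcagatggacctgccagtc
Zfp768: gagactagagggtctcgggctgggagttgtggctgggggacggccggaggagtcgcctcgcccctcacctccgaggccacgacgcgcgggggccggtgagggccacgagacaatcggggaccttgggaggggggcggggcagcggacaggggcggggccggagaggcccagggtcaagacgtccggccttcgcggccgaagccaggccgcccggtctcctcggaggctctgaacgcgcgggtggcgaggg

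For the counts that follow, the shares of all tested genes were again 28.7% lower and 32.3% higher. Of the 47 tested genes with CCAAT in the promoter, 27 were called lower in CV livers and 1 higher, with a median change of −0.78. Of the 27 tested genes without it, 12 were lower and 2 higher, with a median of −0.54. The 9 tested genes with no matched promoter had 3 lower and 2 higher, with a median of −0.45. Calls among all tested genes with CCAAT were not counted. A match of these letters is a description and says nothing of a bound factor.

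To ask whether the change depended on sex, the contrast was taken within each sex. In males 19 genes were called lower (15.4% of all tested genes) and 4 higher (14.1%), with a median of −0.44. In females 36 were lower (26.0%) and 4 higher (29.8%), with a median of −0.72. Of these, 16 were lower and 3 higher in both, and the share of all tested genes called in both was not counted. Without CV male 3 the male counts were 15 lower (13.1%) and 3 higher (12.1%). Without GF male 1, 10 were lower in males (7.46%). Scaled to all reads, 9 were lower (6.69%) and 5 higher (24.0%) in males, with a median of −0.15, and 15 lower (9.5%) and 9 higher (49.5%) in females, with a median of 0.08. The medians of all tested genes were then 0.37 in males and 0.86 in females. Scaled to reads outside the abundant loci, 26 were lower (20.7%) and 0 higher (6.57%) in males. With the mitochondrial ribosomal RNA share as a covariate, 4 were lower (2.03%) and 0 higher (1.13%) in males. Males and females did not overlap between conditions in 31 and 42 genes lower in CV (21.1% and 31.0% of all tested genes) and in 6 and 4 genes higher in CV (22.0% and 34.0%). Abundant loci held 60.7% to 70.4% of reads in GF females and 43.9% to 54.3% in GF males.

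No gene of the 83 differed significantly between the sexes in its change (limma interaction, 0 of 83 at an adjusted p under 0.05, and 0.00% of all tested genes in either direction). At an unadjusted p under 0.05 there were 9, against 11.7% of all tested genes, and edgeR and DESeq2 also called 0. The smallest p belonged to Zfp952, a KRAB gene with 9 fingers. It was at 53.7, 26.6 and 43.9 in GF males and 34.9, 42.1 and 40.0 in CV males, which overlapped, and at 72.5, 79.8 and 61.3 in GF females and 20.6, 27.5 and 24.1 in CV females, which did not. The change in males minus that in females was 1.49 ± 0.43 (adjusted p = 0.42), and 1.47 without CV male 3. Zfp759, with 19 fingers, was at 34.9, 14.6 and 43.9 in GF males, 27.6, 42.1 and 20.9 in CV males, 64.9, 58.5 and 90.1 in GF females and 14.3, 15.5 and 23.5 in CV females. Its difference was 1.98 ± 0.57 (adjusted p = 0.42) and 2.21 without CV male 3. For Zfp715 it was 1.16 ± 0.38 (adjusted p = 0.42). Zfp948 differed only without CV male 1 (1.66 ± 0.41, limma adjusted p = 0.049), compared with 1.36 ± 0.46 with all libraries. Without CV male 1, the interaction was called for 1.59% of all tested genes below 0 and 0.883% above 0.

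**Figure D5:**
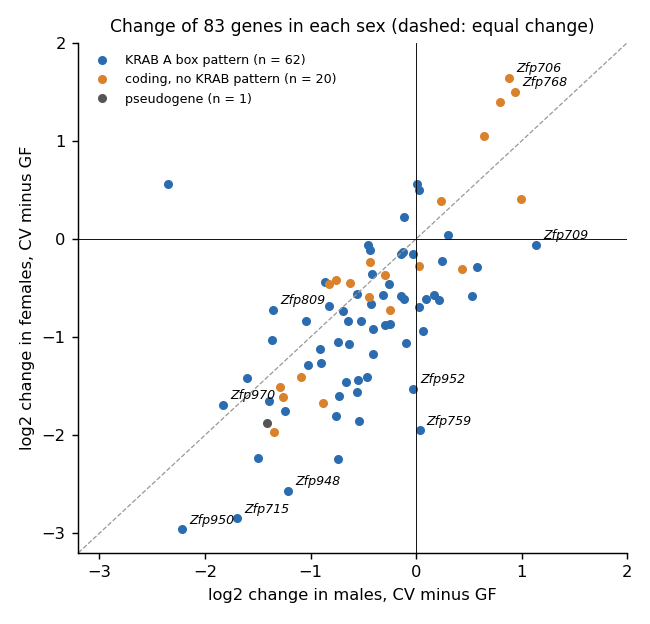
The log2 change CV minus GF of 83 genes in females (vertical axis) against males (horizontal axis), deposited scaling, coloured by KRAB pattern, with equal change dashed. Of the 83 genes 60 lie below 0 in both sexes and 9 above 0 in both; Zfp759 and Zfp952 lie near 0 in males and at −1.95 and −1.53 in females.

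Between males and females over both conditions, none of the 83 genes was called by limma (0.433% of all tested genes were called lower and 0.730% higher in males). At an unadjusted p under 0.05 there were 5, against 11.0% of all tested genes, and edgeR called 0. Zfp809, a KRAB protein known for silencing retroviral DNA in embryonic cells, came closest. It was at 196, 239.5 and 180.0 in GF males, 122, 128 and 63.3 in GF females, 86.9, 90.6 and 62.7 in CV males, and 63.9, 61.1 and 55.4 in CV females. GF males were above all GF females. CV males and females overlapped through CV male 3 alone (62.7), and the other 2 CV males were above all CV females. Males exceeded females by 0.71 ± 0.20 on the log2 scale (limma adjusted p = 0.13) and by 0.79 ± 0.21 without CV male 3 (adjusted p = 0.079). It was called by DESeq2 (0.69 ± 0.20, adjusted p = 0.035) and with the replicate number as a block (adjusted p = 0.039). Of all tested genes, DESeq2 called 0.671% lower and 1.54% higher in males, and limma with the block 0.815% and 2.2%. The CV values of Zfp809 were below all GF values in males (−1.35 ± 0.28). In females they were lower on average (−0.72 ± 0.28) but overlapped, with 63.9 in CV female 1 and 63.3 in GF female 3. Zfp983 and Zfp951, with 10 fingers each, had higher mean values in females, with males minus females at −0.77 ± 0.27 (adjusted p = 0.28) and −1.16 ± 0.43 (adjusted p = 0.30).

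The partners through which KRAB proteins act were described from a list of 30 genes, of which 28 were tested. By limma 15 were lower in CV livers and 5 higher, against 28.7% and 32.3% of all tested genes, with a median of −0.55 against 0.07. All values and calls of the list are on the deposited scaling, and the list was not taken through the other settings. The median over all tested genes was 0.62 on all reads. With the mitochondrial ribosomal RNA share as a covariate, only 0.628% of all tested genes were called lower and 0.552% higher. Trim28 itself, the scaffold bound by KRAB domains, was at 210.1 to 378 in GF and 216 to 289 in CV libraries and was not called (−0.18 ± 0.18). Setdb1, the methyltransferase it recruits, fell, at 126 to 226 in GF and 92.1 to 130.4 in CV libraries (−0.82 ± 0.17). Of 3 genes of the HUSH silencing complex, 2 fell, with Fam208a at 254 to 518 and 81.9 to 189 (−1.77 ± 0.19) and Mphosph8 at 152 to 261 and 55.7 to 126 (−1.35 ± 0.22), whereas Pphln1 was not called by limma, at 42.2 to 119.8 and 67.2 to 95.2 (−0.02 ± 0.22). Morc2a, a partner of HUSH, also fell (−1.53 ± 0.21), as did Morc3, an ATPase of silent chromatin, at 159.7 to 334 in GF and 48.9 to 77.2 in CV libraries (−2.08 ± 0.18). Of 9 genes of the NuRD complex, 4 rose, 2 fell and 3 were not called by limma. Mbd3 was at 134 to 281 in GF and 289.8 to 545 in CV libraries (1.03 ± 0.18) and Rbbp4 at 157 to 359 and 238 to 777 (1.01 ± 0.25), and Rbbp7 and Hdac2 also rose. Hdac2 overlapped between conditions, at 74.8 to 127.8 and 110.5 to 179.6 (0.43 ± 0.18, limma adjusted p = 0.049). Chd3 (−1.45 ± 0.27) and Chd4 (−0.55 ± 0.15) fell, and Hdac1, Mta1 and Mta2 were not called. Within males alone, limma called none of these 9 genes, nor Setdb1, but did call Fam208a, Mphosph8, Morc2a and Morc3. Zfp57 and Uhrf1 were below the minimum. Trim24 was the only one of the 28 to differ between the sexes by limma, lower in males, with males minus females at −1.45 ± 0.27 (adjusted p = 0.0086). This fit includes CV male 3, and a fit of Trim24 without it is not given here. CV male 3 was at 209.9, within the range of the CV females (120.7 to 222.8), whereas the other CV males were at 65.6 and 79.5.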

How the data were processed

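Per the labels, 1 stranded mRNA library was made from the liver of each mouse. The submitters' processing notes name HTSeq 0.6.1p1, DESeq2 and build GRCm38. The aligner, the annotation and the strand setting of the counting are not given in the sources used here. The deposited unit is a normalized signal per gene, in which the authors divided each library's read counts by 1 size factor; in every library 100% of values were whole multiples of 1 read within 0.01 reads, so whole reads were recovered. The paper linked to the series describes another experiment, and no method was taken from it.

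Groups and replicate numbers came from the sample titles. The main test was limma 3.58.1 (R 4.3.3) on log2(value + 1), for the 11782 genes whose mean value reached 10, with group means, a variance trend and a threshold of 0.05 on the Benjamini-Hochberg adjusted p. On this scale the changes of low genes are understated. The p-values are those of limma unless edgeR 4.0.16 or DESeq2 1.42.0, both run on the recovered reads, is named. Replicates are 3 mice per group. The fit was tested on simulated data. The genes, the lists and the tests were chosen with earlier results of these data known. Named genes are the 10 highest per kb, the 8 lowest and 6 highest changes, the 3 smallest p-values for sex and for interaction, those with the most and fewest fingers (2 each, ties in order of symbol) and the 2 nearest the median; fingers and the KRAB A box were counted in translated GENCODE M21 coding sequences, as no protein table was used here. Sequence sharing counts 50-base stretches of GENCODE transcripts. Alternatives were 14 other settings and each of the 12 libraries left out in turn.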

Additional observations from a re-analysis of the deposited data

Results flagged for a closer look

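In 60 sets of 6 libraries of a condition, for 29 named genes and the summed value, 2 had a library whose gap to the others was large for the range of the set (above Dixon's critical value for 6 libraries), and chance alone marks about 1 set in 20. GF female 2 had a Zfp704 value of 205, while the other GF libraries reached 130.3. CV female 3 had a Zfp787 value of 102, while the other CV libraries reached 71.8. No difference between the sexes in the change of a named gene passed limma's adjusted threshold with all 12 libraries.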

How the results depend on the processing

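For the 83 genes, the following counts moved by over 1.5 times, or the median change by more than the spread between libraries, and the cause was not tested. Scaled to all reads, 17 were lower and 10 higher over both sexes, 9 lower in males and 15 in females, with a median of −0.059. Scaled to reads outside the abundant loci, 3 were higher over both sexes and 59 lower in females (41.8% of all tested genes), with a median of −1.10. With the mitochondrial ribosomal RNA share as covariate, which differs between the conditions, 1 (Zfp950) was lower and 0 higher over both sexes, 4 lower in males and 0 in females, with a median of −0.36. With a minimum mean of 50, which leaves 37 genes, 26 were lower over both sexes (27.3%) and 21 in females (24.6%), with a median of −0.76. With the length and GC trend removed the median was −0.39, and at a threshold of 0.01, 10 were lower in males (6.81%). Leaving out 1 library gave 38 to 43 lower and 4 to 5 higher over both sexes, 10 to 22 lower in males (10 without GF male 1, 22 without GF female 2), 30 to 39 in females, a median of −0.67 to −0.52 and 0 sex differences. It also gave 0 to 1 interactions, namely Zfp948 without CV male 1, where 1.59% of all tested genes were called below 0 and 0.883% above 0. DESeq2 called 1 sex difference (0.671% of all tested genes lower and 1.54% higher in males). The replicate block gave 37 lower (27.1%) and 5 higher (30.9%) over both sexes. It gave 1 sex difference (0.815% of all tested genes lower and 2.2% higher in males), which was again Zfp809. Replicate numbers were not taken to pair GF with CV libraries, as deviations of same-numbered libraries correlated at −0.23 to 0.02; between CV males and CV females they correlated at 0.12 to 0.19 and all 6 libraries correlated best with their own number, but between GF males and GF females at 0.06 to 0.40 and only 4 of 6 did.

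Of the 29 named genes, the change reversed for Zfp748 (0.18 on all reads, 0.023 with the covariate, 0.089 with the trend removed), Zfp871 (0.16 with the trend removed), Zfp951 (0.90 with the covariate), Zfp995 (0.71 with the covariate) and Zfp825, which lay near 0 (−0.46 outside the loci, −0.012 with TMM factors, −0.10 by edgeR, −0.077 by DESeq2, −0.033 with the covariate, −0.0065 with the trend removed, −0.10 thinned to equal depth, and −0.15 to 0.24 when 1 library was left out, below 0 without GF male 1, GF female 2 or CV female 3). With a minimum mean of 1, 103 genes were tested and 42 called lower (27.1% of all tested genes), and with no minimum 116 and 40 (18.4%).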

Other observations

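Zfp791, chosen after its values were seen, had the lowest change in males of the 83 genes and a change above 0 in females. It was at 11.6, 33.3 and 26.9 in GF males and 9.89, 0.795 and 3.63 in CV males, without overlap. In females it was at 40.8, 21.3 and 1.92 in GF and 28.2, 16.8 and 15.7 in CV libraries, which overlapped. The difference between the sexes was −2.91 ± 1.17 on the log2 scale (limma adjusted p = 0.42). The value of 1.92 in GF female 3 is that of 1 read.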
